A study of Mus musculus with 12 samples.

Results

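miR-33 is a microRNA made from an intron of Srebf2, the gene of the sterol regulator SREBP-2. It was measured as 2 mature products, mmu-miR-33-5p and mmu-miR-33-3p (below without the species prefix), which are 2 of the 1978 miRNAs counted. They were chosen from the counts for a large excess in trophoblast stem cells (TSC), which give rise to the placenta, over embryonic stem cells of the mouse line E14 (ESC), so that excess is a description here and carries no test. Small RNA was sequenced from paused TSC, control TSC, paused ESC and control ESC. Paused cells had been treated with an inhibitor of mTOR, a growth kinase, which puts cells in a reversible dormant state; the labels give neither its name nor its dose and duration. Control cells are labelled wild type and carry no listed treatment, and no group is labelled with an engineered allele. How the TSC were derived is not stated either. Of 3 files per group, the file of replicate 3 was identical to that of replicate 2 at all 1978 miRNAs, so each pair was counted as 1 sample. That leaves n = 2 libraries per group, whose spread may be technical. The p-values of edgeR use the spread between libraries pooled over the tested miRNAs, not that of miR-33-5p alone. Total counts were 23652 and 30487 in paused TSC, 115492 and 18725 in control TSC, 73574 and 61749 in paused ESC, and 19266 and 13607 in control ESC. Levels are given in CPM, the count relative to library size after TMM scaling (edgeR's correction for composition).

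SREBP-2 is the transcription factor that switches on cholesterol synthesis and uptake genes when sterols are low, and mTOR signalling is known to promote SREBP activity. miR-33 is transcribed with its host and in liver cells and macrophages represses Abca1, the transporter that exports cholesterol, along with genes of fatty acid oxidation. Primates carry another copy in SREBF1, while rodents carry only the copy in Srebf2.

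The hairpin and its products are shown because everything below is counted on them. The mouse hairpin Mir33 lies on chromosome 15 of GRCm38, 82198122 to 82198190 on the plus strand. In the 19-exon Srebf2 transcript (82147181 to 82205379) this is intron 16 (82197787 to 82199634), 335 bases past the exon before it and 1444 bases before the next exon, in the sense of the host. Exactly 1 hairpin named Mir33 was found in the RefSeq table, so its reads have a single annotated home. The 69-base hairpin (RefSeq, GRCm38.p6) has the 5p product at bases 6 to 26 and the 3p product at bases 46 to 67, both in capitals. In the mature sequences the capitals mark the seed, bases 2 to 8, which pairs with targets.
Mir33 hairpin: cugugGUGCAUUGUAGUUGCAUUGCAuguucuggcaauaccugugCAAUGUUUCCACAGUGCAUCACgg
miR-33-5p: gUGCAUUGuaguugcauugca
miR-33-3p: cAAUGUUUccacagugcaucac
The seeds of the arms differ from each other, and each was held by 0 of the other mature mouse miRNAs among the 1738 entries of the table.

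**Figure D1:**
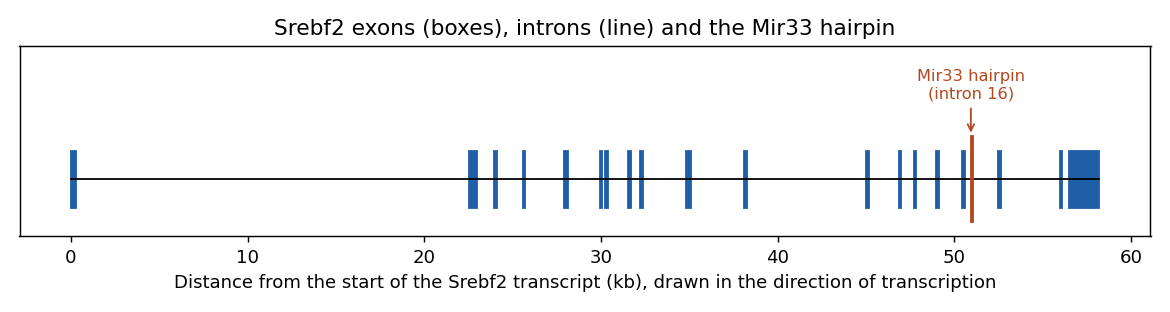
Map of the 19-exon Srebf2 transcript, with distance from its start in kb on the x axis, exons as blue boxes and introns as the black line. The Mir33 hairpin (red) begins 50.9 kb from the start of a transcript that spans 58.2 kb, in intron 16.

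The best known target is shown as context, since mRNAs were not measured here. The DNA letters opposite the miR-33-5p seed, CAATGCA, were searched on the mRNA strand of 3′ UTRs of GENCODE M21 (GRCm38), taking for each gene the coding transcript with the longest 3′ UTR. Abca1 had 3 matches, all within the first 300 bases of its 3′ UTR, at UTR positions 135, 140 and 150, of which the first pair overlap. They lie on the minus strand of chromosome 4 at 53033802 to 53033808, 53033797 to 53033803 and 53033787 to 53033793. The match is in capitals, with mRNA bases before and after it.
Abca1 match 1: gtactgacactattCAATGCAatg
Abca1 match 2: gacactattcaatgCAATGCActt
Abca1 match 3: aatgcaatgcacttCAATGCAacg
Among 16441 3′ UTRs of at least 300 bases, 1.39% held a match in their first 300 bases, and 2, Abca1 included, held 3 or more. In the whole 3′ UTR, Abcg1, another sterol exporter, had 2 matches, and Crot, Cpt1a and Hadhb, which work in fatty acid oxidation, had 1 each. Abcb11, the bile salt exporter, had 0. A match of letters is a description and not evidence of a working site.

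miR-33-5p was counted in every TSC library and was at or near 0 in ESC. It had 119 and 52 counts in paused TSC, 162 and 72 in control TSC, 0 and 2 in paused ESC, and 2 and 2 in control ESC. In CPM these are 4919 and 1572 in paused TSC, 2064 and 4334 in control TSC, 0 and 30.9 in paused ESC, and 91.1 and 127.8 in control ESC. Every TSC library lay above every ESC library, and the paused and control TSC overlapped. All 4 ESC libraries held fewer than 3 counts, which is as much as a library with 0 could hide and is worth 37.4 to 191.7 CPM in these libraries.

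The order of the group means was paused TSC (3246 ± 2366 CPM), control TSC (3199 ± 1605 CPM), control ESC (109.5 ± 25.9 CPM) and paused ESC (15.5 ± 21.9 CPM; SD, n = 2 each). The TSC groups differed by less than their spread. The ESC means rest on 2 counts against 4, so no order of the ESC groups is read from them. By count, miR-33-5p ranked 35 and 53 among the 1978 miRNAs in paused TSC, and 54 and 37 in control TSC. It made up 0.503% (95% exact binomial interval 0.417 to 0.602) and 0.171% (0.127 to 0.224) of counts in paused TSC, against 0.140% (0.120 to 0.164) and 0.385% (0.301 to 0.484) in control TSC. Such intervals take counts as independent and cover counting error only, not the spread between libraries. The labels mention no molecular identifiers by which that independence could be checked. In bulk samples fewer cells that express a miRNA and less of it per cell cannot be told apart.

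**Figure D2:**
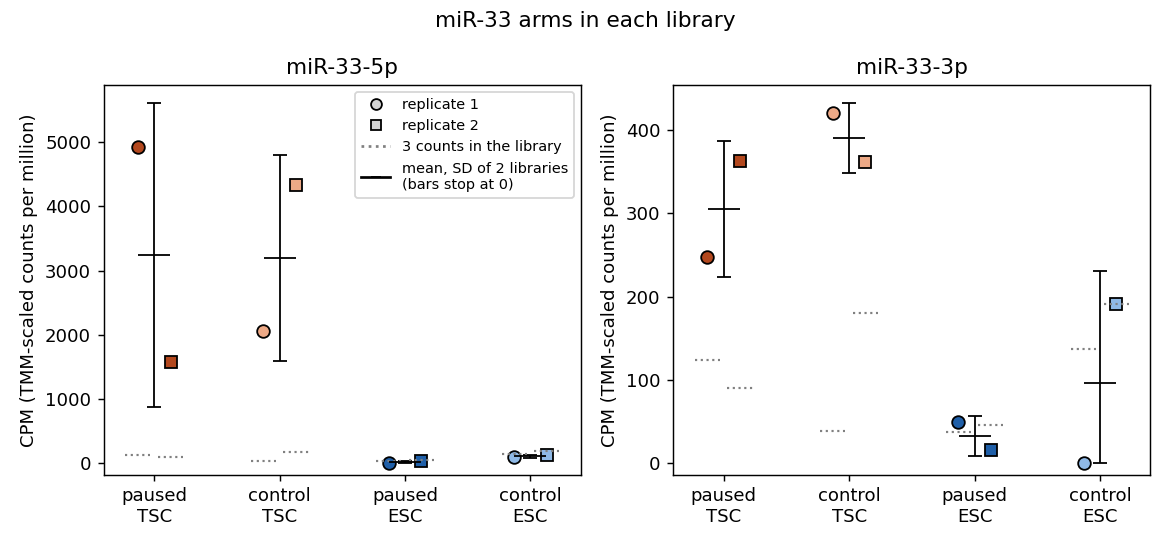
Levels of miR-33-5p (left) and miR-33-3p (right) in CPM on linear axes, 1 point per library (circle replicate 1, square replicate 2), with the mean and SD of each group and dotted lines at 3 counts. For miR-33-5p the TSC libraries sit between 1572 and 4919 CPM and the ESC libraries between 0 and 127.8 CPM.

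The excess for which miR-33 was picked is described as follows, with no test. Control TSC held 234 counts against 4 in control ESC, a ratio of scaled counts of 23.1 (95% counting interval 8.91 to 85.6). Paused TSC held 171 counts against 2 in paused ESC, a ratio of 216 (59.0 to 1800). At the TSC level of the same state, the paused ESC libraries would have held 239 and 193 counts of miR-33-5p and the control ESC libraries 54.0 and 38.5; they held 0 and 2, and 2 and 2. The edgeR log2 fold change was 4.80 ± 0.61 SE in control cells, rank 15 from the top of 206 miRNAs tested, and 7.57 ± 0.62 SE in paused cells, rank 5. Here and below, SE is the absolute log2 fold change divided by the square root of the F statistic of edgeR's test. It is not a fitted standard error. With so few ESC counts it understates the counting error, which the intervals above show. Differences between the cell types were common, with 74.3% of tested miRNAs called between control TSC and control ESC (40.8% higher in TSC) at a Benjamini-Hochberg adjusted p under 0.05. Between paused TSC and paused ESC 76.7% were called, 39.3% as higher in TSC. The markers of the labelled cell types were only partly separate. The 4 products of the miR-322/miR-503 cluster, known from trophoblast, summed to 54477 to 67889 CPM in paused TSC, 123632 to 146165 CPM in control TSC, 661 to 789 CPM in paused ESC and 684 to 1023 CPM in control ESC. Of the pluripotency marker miR-367-3p, TSC held 0 counts, paused ESC 1 and 3, and control ESC 20 and 20. The other listed members of its cluster, miR-302a-3p, miR-302b-3p and miR-302d-3p, were less separate, with 2 counts each in control TSC replicate 1. In the same order they had 0 and 0, 3 and 0, and 0 and 1 counts in paused ESC. In control ESC they had 2 and 6, 11 and 17, and 9 and 13. The members of the miR-290 cluster on the list of ESC markers did not mark ESC among control cells. Their log2 fold changes of control TSC over control ESC were 0.39 to 0.74. For paused TSC over paused ESC they ran from −0.60 (miR-294-3p, higher in ESC) to 0.32 (miR-290a-5p). The whole ESC list of 8 therefore summed to 311142 to 317891 CPM in paused TSC, 318409 to 503883 CPM in control TSC, 282554 to 316804 CPM in paused ESC and 277001 to 292762 CPM in control ESC.

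Of the markers of other cells, the 5 of blood stood out in ESC, where miR-33-5p was low. They summed to 0 to 41.3 CPM in paused TSC, 0 to 178 CPM in control TSC, 4610 to 5200 CPM in paused ESC and 7839 to 9650 CPM in control ESC, with miR-223-3p and miR-451a at 0. The 5 of fibroblasts summed to 151 to 413 CPM in paused TSC, 301 to 930 CPM in control TSC, 835 to 960 CPM in paused ESC and 703 to 1003 CPM in control ESC, most of it miR-143-3p, with miR-199a-3p and miR-199a-5p at 0. Whether these counts come from blood cells and fibroblasts or from the labelled cells themselves was not tested, nor was their part in the level of miR-33. The markers of liver (miR-122-5p), nerve (miR-124-3p and miR-9-5p) and muscle (miR-1a-3p and miR-133a-3p) were at 0 too, except for 6 counts of the muscle marker miR-206-3p in a control TSC library. A count of 0 may not show absence for miRNAs with several genomic copies: 84.9% of the 53 with more than 1 locus in the RefSeq table had no count in any library, against 67.0% of the 1626 with 1 locus. miR-9-5p and both miR-199a arms have several loci there, miR-33 has 1, and how the counting treated reads with several matches was not tested. miR-122-5p, miR-124-3p, miR-1a-3p and miR-133a-3p have no entry there under these names, so their loci were not counted.

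Whether pausing moves miR-33 was tested within each cell type. In TSC no change was detected. edgeR's quasi-likelihood test gave miR-33-5p a log2 fold change of 0.06 ± 0.37 SE between paused and control TSC (95% interval −0.66 to 0.79, adjusted p = 0.938). In that comparison 18.9% of the 206 tested miRNAs were called, and the median log2 fold change of all 206 was −0.39. The interval of miR-33-5p uses the pooled spread, not that of its own libraries. It leaves room for a change as large as that median in either direction. An exact two-sided permutation test of the share of counts gave p = 0.667, where 2 libraries against 2 cannot go below 0.333.

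The TSC value rests on libraries that differ widely within each group. Paused replicate 1 held 3.13 times the scaled count of paused replicate 2 (95% counting interval 2.24 to 4.42), and control replicate 2 held 2.10 times that of control replicate 1 (1.57 to 2.79). Between the paused libraries 4 of 206 miRNAs (1.94%) differed by as much as miR-33-5p, and between the control libraries 34 (16.5%). Leaving out a single library moved the value in both directions. Without control replicate 2 the log2 fold change was 1.09 and the adjusted p was 0.0352, past the threshold, and without paused replicate 2 it was 0.85 (adjusted p = 0.461). Without control replicate 1 it was −0.20 (adjusted p = 0.834) and without paused replicate 1 it was −0.55 (adjusted p = 0.634).

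The pair of libraries set by the order of miR-33-5p itself, paused replicate 1 and control replicate 2, stood high for some other miRNAs too. Control replicate 2 above control replicate 1 together with paused replicate 1 above paused replicate 2 was the order for 42 of 206 miRNAs (20.4%), miR-33-5p included. Such a share is no larger than unrelated, even orders in both groups would give, so no shared pattern is read from it. Only 4 of 206 (1.94%) were over 2-fold apart in both groups, namely miR-33-5p, miR-130a-3p, miR-542-5p and miR-669i, which were singled out after their values were seen. miR-130a-3p had 48566 and 19535 CPM in paused TSC, against 14420 and 30998 CPM in control TSC. Whether these libraries share anything was not tested.

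In ESC the counts were too few to read a change in either direction. Paused ESC held 2 counts against 4 in control ESC, over libraries that were together several times deeper in paused cells, a ratio of scaled counts of 0.130 (95% counting interval 0.0117 to 0.905). miR-33-5p was not called (edgeR adjusted p = 0.0668, DESeq2 adjusted p = 0.148). Of the tested miRNAs 27.7% were, 8.25% as higher and 19.4% as lower, with a median log2 fold change of −0.03. miR-33-5p entered the fit only through its TSC counts, so the ESC p is not read as a result. Without paused replicate 2, where 1 library at 0 counts takes its spread from the other groups, the adjusted p was 0.0273, and without paused replicate 1 it was 0.359. The blood markers moved in the same comparison: miR-142a-5p fell (log2 fold change −4.25, edgeR adjusted p = 6.74e-20) and miR-142a-3p fell (−3.86, adjusted p = 2.27e-15), while miR-150-5p rose (adjusted p = 0.00813). Their part in the miR-33-5p counts was not tested. The fitted log2 fold change of −2.70 ± 1.16 SE rests on these 6 counts, depends on how a count of 0 is handled and is no bound.

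The pause effects of the cell types were compared in the same fit. The log2 difference, TSC minus ESC, was 2.76 ± 1.21 SE and was not called (edgeR adjusted p = 0.0682), with 26.2% of miRNAs called in that comparison. It uses the same libraries as the excess that picked miR-33 and its ESC side rests on 6 counts, so it is given as a description from which nothing is read. That holds also for the fits without control TSC replicate 2 and without paused ESC replicate 2, which passed the threshold (adjusted p = 0.0178 and 0.0226).

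miR-33-3p, the less abundant arm, was counted in 7 of 8 libraries. It had 6 and 12 counts in paused TSC, 33 and 6 in control TSC, 4 and 1 in paused ESC, and 0 and 3 in control ESC. In CPM these are 248.0 and 362.9 in paused TSC, 420.4 and 361.1 in control TSC, 49.9 and 15.5 in paused ESC, and 0 and 191.7 in control ESC. The TSC libraries all lay above the ESC libraries, and in ESC 1 of 4 values passed the 3-count limit of its library.

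The means of miR-33-3p were 305 ± 81.2 CPM in paused TSC, 391 ± 41.9 CPM in control TSC, 32.7 ± 24.3 CPM in paused ESC and 95.9 ± 136 CPM in control ESC (SD, n = 2 each). In the order of level, control TSC, paused TSC, control ESC and paused ESC, no neighbouring means differed by more than their summed SDs. The arm did not pass the filter on low counts and so has no result beside miR-33-5p. The ratio of scaled counts was 0.767 (95% counting interval 0.413 to 1.37) for paused over control TSC and 0.433 (0.0842 to 2.79) for paused over control ESC, both spanning 1. With no filter the edgeR adjusted p was 1 in TSC and 0.925 in ESC. For the excess in TSC, again a description, the ratio was 5.14 (1.63 to 26.0) for control TSC over control ESC and 9.11 (3.26 to 31.4) for paused TSC over paused ESC.

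The share of hairpin counts on the 5p arm was not used to pick miR-33. In TSC the 5p arm dominated, as is known of the miR-33 guide strand. It took 95.2% (119 of 125, exact interval 89.8 to 98.2) and 81.2% (52 of 64, 69.5 to 89.9) in paused TSC, against 83.1% (162 of 195, 77.1 to 88.1) and 92.3% (72 of 78, 84.0 to 97.1) in control TSC. The groups overlapped, at 88.2% ± 9.86 in paused and 87.7% ± 6.53 in control TSC (SD, n = 2; exact permutation p = 1). The share was higher in the libraries where miR-33-5p stood high, paused replicate 1 and control replicate 2. That is partly built in, since the miR-33-5p count is the numerator of the share, and nothing is read from it. These libraries held 6 counts of miR-33-3p each, too few to order that arm between libraries. As a share of all counts, miR-33-3p was 0.0320% (exact interval 0.0118 to 0.0697) in control replicate 2 and 0.0286% (0.0197 to 0.0401) in control replicate 1. In paused TSC it was 0.0254% (0.0093 to 0.0552) in replicate 1 and 0.0394% (0.0203 to 0.0687) in replicate 2. In ESC 6 of 14 counts were on the 5p arm (42.9%, exact interval 17.7 to 71.1), with 2 of 7 in paused and 4 of 7 in control cells. Pooled over TSC it was 405 of 462 counts (87.7%, 84.3 to 90.5). With 2 to 5 counts of the hairpin in each ESC library, no arm preference in ESC can be read from these files.

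**Figure D3:**
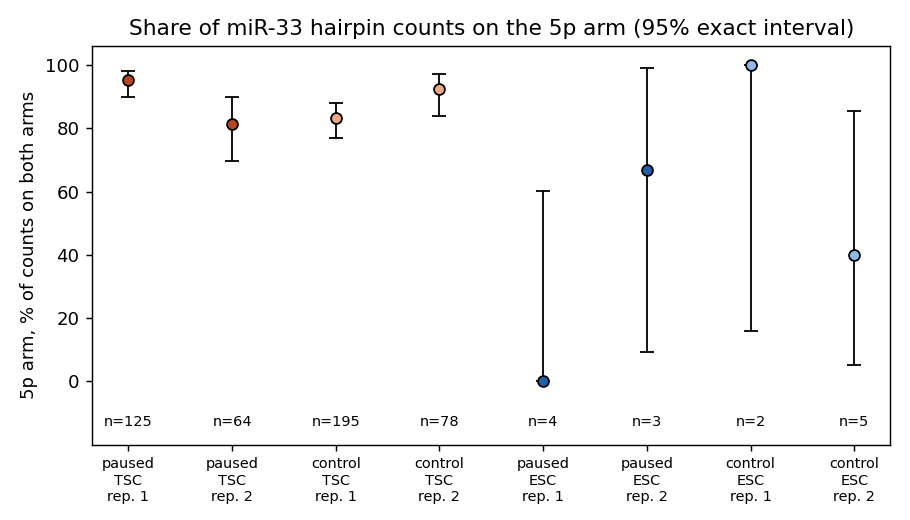
Percent of miR-33 hairpin counts on the 5p arm in each library, with 95% exact binomial bars and n, the counts on both arms. The TSC libraries lie between 81.2% and 95.2%, while the bars of the ESC libraries cover most of the axis.

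miR-33 belongs to a circle of miRNAs reported, mostly from liver cells and macrophages, to act on cholesterol genes or to respond to SREBP. Of 22 such miRNAs listed beside miR-33, 11 were tested and 4 had 0 counts in all libraries (miR-122-5p, miR-223-3p, miR-26a-5p and miR-30c-5p). Of these, miR-26a-5p and miR-30c-5p have 2 loci each in the RefSeq table, so their 0 may not show absence. In paused against control TSC, 0 of the 11 were called, against 18.9% of all miRNAs, and their median log2 fold change was −0.09. The largest was that of miR-125a-5p at 0.94 ± 0.36 SE (edgeR adjusted p = 0.0519), with 4219 CPM in paused and 2151 CPM in control TSC; it missed the threshold here and passed it in 13 of 17 alternatives. In paused against control ESC, 1 was called higher and 1 lower, against 8.25% and 19.4% of all miRNAs, and the list's median was 0.19. The higher was miR-148a-3p, which targets the LDL receptor, with 779 CPM in paused against 310 CPM in control ESC (log2 fold change 1.28 ± 0.50 SE, adjusted p = 0.0374). The lower was miR-301b-3p, with 411 CPM in paused against 1072 CPM in control ESC (−1.33 ± 0.44 SE, adjusted p = 0.0146). Each of these calls held in 9 of 17 alternatives, with an adjusted p of up to 0.211 for miR-148a-3p and 0.497 for miR-301b-3p. The alternatives include counting identical files as separate libraries and leaving out libraries of the other cell type. Such tallies, here and below, are therefore a description and no measure of support.

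The miRNAs of the locus that SREBP-2 is known to induce, miR-96-5p, miR-182-5p and miR-183-5p, were not called in either cell type, although miR-183-5p in ESC (adjusted p = 0.0590 by edgeR) passed in 10 of 17 alternatives. Their log2 fold changes in TSC were −0.46, −0.84 and −0.31, and in ESC −0.34, 0.25 and 0.83. miR-27a-3p and miR-27b-3p, which like miR-33 target Abca1, gave −0.31 and 0.18 in TSC and 0.94 and 1.02 in ESC, again without a call (edgeR adjusted p = 0.0998 and 0.0548 in ESC, passed in 6 and 9 of 17 alternatives). Of 7 miRNA arms hosted in other metabolic genes, only miR-378a-3p, from an intron of Ppargc1b, was tested. It had 1616 CPM in paused and 1175 CPM in control TSC, and 261 CPM in paused and 342 CPM in control ESC, and was not called on pausing (adjusted p = 0.493 in TSC and 0.601 in ESC).

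**Figure D4:**
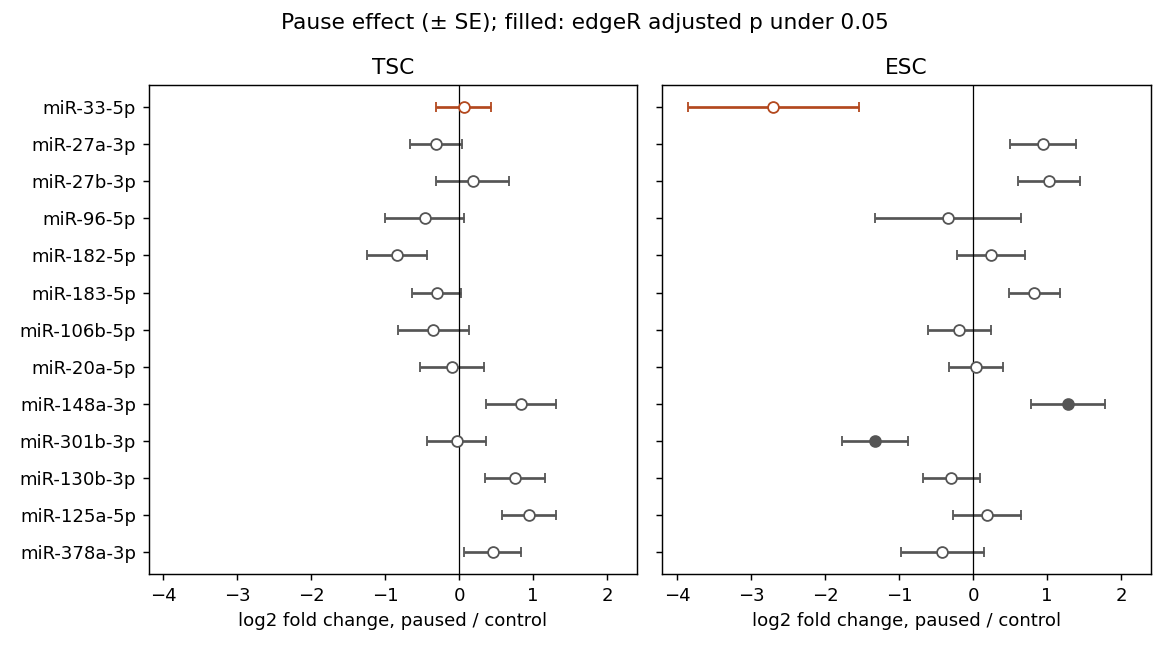
Log2 fold change of paused over control cells (± SE) in TSC (left) and ESC (right) for miR-33-5p (red), 11 miRNAs reported to act on sterol genes and miR-378a-3p. Filled points passed an edgeR adjusted p of 0.05, which in ESC were miR-148a-3p and miR-301b-3p and in TSC none of those drawn; the ESC point of miR-33-5p at −2.70 rests on 6 counts.

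The miRNAs whose profile was most like that of miR-33-5p were ranked by Pearson's r of log2 CPM over the 8 libraries, among 205 others. The 8 libraries fall into the 2 cell types and share their scaling, so r mostly follows the step between TSC and ESC and is given as a description. The first 5 were miR-291b-3p (r = 0.986), miR-126a-3p (0.985), miR-130a-3p (0.984), miR-297c-5p (0.980) and miR-188-5p (0.979). Sequences are shown to compare their seeds, in capitals, with that of miR-33-5p; miR-297c-5p is named only.
miR-291b-3p: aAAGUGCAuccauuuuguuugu
miR-126a-3p: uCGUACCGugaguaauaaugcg
miR-130a-3p: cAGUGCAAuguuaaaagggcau
miR-188-5p: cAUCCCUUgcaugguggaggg
None of these 4 has the seed of miR-33-5p, and they lie on chromosomes 7, 2, 2 and X, away from Srebf2.

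Their levels differed. miR-297c-5p came closest in height, with 2717 ± 2003 CPM in paused TSC, 2539 ± 1176 CPM in control TSC, 0 counts in paused ESC and 3 counts in control ESC. No fold is given at such counts. miR-188-5p, at 644 ± 141 CPM in paused and 731 ± 11.7 CPM in control TSC, was likewise at 0 counts in paused ESC, against 3 in control ESC. miR-126a-3p, best known from endothelium, had 1405 ± 234 CPM in paused and 1817 ± 155 CPM in control TSC, against 481 ± 63.3 CPM in paused and 639 ± 0.733 CPM in control ESC, so its step was smaller than that of miR-33-5p. The summed endothelial markers, miR-126a-3p and miR-126a-5p, ran at 1845 to 2273 CPM in paused TSC, 2943 to 3070 CPM in control TSC, 960 to 975 CPM in paused ESC and 831 to 911 CPM in control ESC. Their part in the level of miR-33-5p was not tested.

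**Figure D5:**
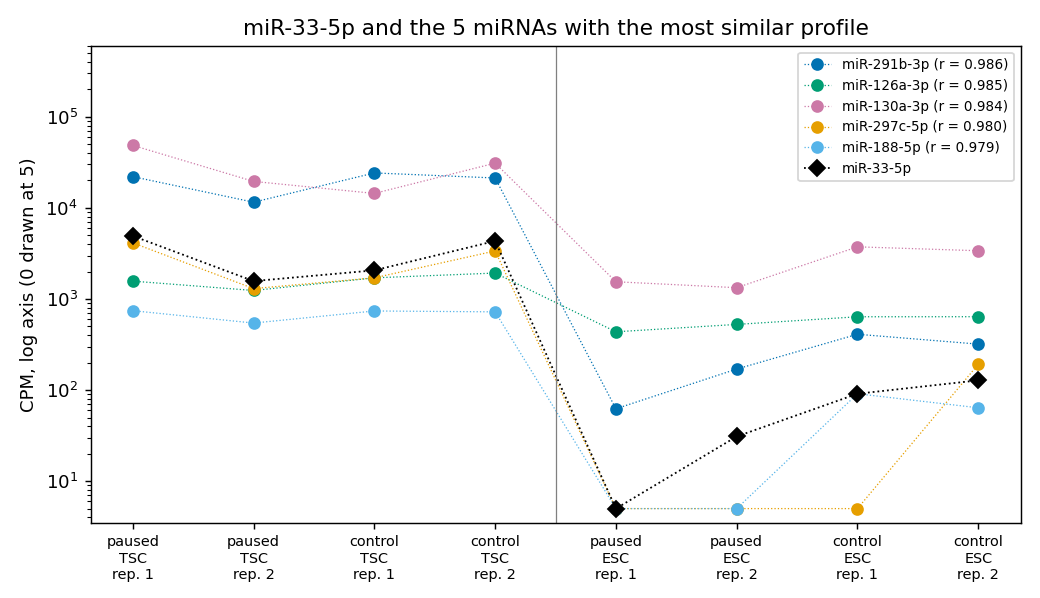
CPM on a log axis (0 drawn at 5) of miR-33-5p (black diamonds) and the 5 miRNAs with the highest Pearson's r to it, in each of the 8 libraries; dotted lines only join the points of a miRNA. In TSC, miR-33-5p, miR-130a-3p and miR-297c-5p are high in paused replicate 1 and control replicate 2.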

How the data were processed

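The deposited files hold raw counts per mature miRNA arm for 1978 miRNAs, produced by the authors on the GRCm38 build, per the submitters' processing notes. Per the labels' protocols, 10 ng of small RNA went into SMARTer libraries. No source used here gives the aligner, the counter, the annotation release or the handling of multiply matching reads. Identical files of a group were merged, and 8 libraries remained. Counts were fitted with edgeR 4.0.16 (R 4.3.3): TMM scaling, filterByExpr with its minimum of 10 counts (206 miRNAs kept, about 369 CPM in 2 libraries), and the quasi-likelihood test with all 4 groups in the fit. The common dispersion was 0.0456, and the prior degrees of freedom were infinite, so edgeR's p-values use a spread pooled over miRNAs. Calls are at a Benjamini-Hochberg adjusted p under 0.05, two-sided. Fits were tested on counts simulated with the dispersion of 0.0456 for all miRNAs and the same mean profile in both cell types. There 46.2% of the tested 2-fold changes were called in ESC and 46.4% in TSC. Such data meet the pooled spread in advance, so they cannot check a miRNA whose libraries vary more. The alternatives were DESeq2 1.42.0, other scalings and filters, fits on the groups compared, a replicate block, all files as libraries, and each library left out. Counting intervals are exact and conditional on the total. The rule for named miRNAs was both arms, tested list members and the 5 most similar profiles. The members and lists were chosen with earlier results of these data known.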

Additional observations from a re-analysis of the deposited data

How the results depend on the processing

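miR-33-5p stayed uncalled on pausing in all settings that used all libraries. In paused against control TSC its log2 fold change was −0.062 with TMM without the miR-290 cluster, −0.26 with the filter at 10 CPM, −0.37 with every file counted as a library and −0.039 with the replicate block. These are the settings with all libraries where the sign turned. The others kept a positive value of whatever size and are not listed. With 1 library left out the log2 fold change ran from −0.55 to 1.09 in TSC and from −5.18 to −1.72 in ESC. For the difference of pause effects it ran from 1.90 to 5.58. In ESC alone miR-33-5p did not pass the filter, so that fit gave no value. The log2 excess in control TSC was 5.69 with the replicate block and ran from 3.82 to 5.06 with 1 library left out; that in paused TSC ran from 6.59 to 10.08. For miR-33-3p, the log2 ratio of pooled counts (0.5 added) in paused against control TSC was −0.79 with the filter at 10 CPM, 0.0043 with no filter, 0.22 with the total count alone and −0.25 to 0.40 with 1 library left out, against −0.36. In ESC it ran from −2.20 to 1.09, for the difference from −1.04 to 2.24, and over ESC from 0.63 to 3.91 in control and 2.34 to 3.83 in paused TSC (2.44 with the filter at 10 CPM, 2.41 with TMM without the cluster).

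Over all miRNAs, 39 were called in TSC, 57 in ESC and 54 for the difference. DESeq2 called 16, 37 and 30, and no filter gave 16 in TSC and 30 for the difference. With every file as a library 94 were called in ESC and 90 for the difference. The replicate block gave 12 in TSC and 31 for the difference. Same-numbered libraries deviated with r = −0.07 in ESC and −0.18 in TSC. With 2 libraries per group, such an r cannot decide whether the numbers pair them. Crossing the numbers in TSC, chosen after seeing the data, gave 25. Median-of-ratios scaling called 24 in TSC and the fit on TSC alone 19. With 1 library left out the counts were 7 to 32 in TSC, 41 to 75 in ESC and 26 to 65 for the difference. The cause was not tested. In these libraries 1 count is worth 12.5 to 63.9 CPM, which sets the smallest level that can be read.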
